A study of Homo sapiens with 41 samples.

Results

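The response of LX-2 cells to thapsigargin was measured here in cells that carried a hairpin against ATF4. LX-2 is an immortalised human hepatic stellate cell line, the cell type that lays down collagen in a scarring liver. The members were chosen by their titles: 2 RNA-seq samples of shATF4 LX-2 cells with thapsigargin (Tg) and 2 samples of shATF4 LX-2 cells with the vehicle DMSO, 4 of the 41 samples of the series. The same hairpin was thus present in both groups, and the difference between them describes cells in which ATF4 was targeted throughout. Comparison groups were shCtrl LX-2 cells with Tg or DMSO, and shATF4 HMLE cells with Tg or DMSO. LX-2 cells of either hairpin that were labelled AA_Dep or TGFbeta were also used for comparison. HMLE is an immortalised line of human mammary epithelial cells. The fit of both lines also held the shCtrl HMLE cells and the HMLE cells labelled AA_Dep or Twist_OE (taken to mean overexpression of Twist). These entered the shared estimate of the spread and no comparison. The labels give neither the concentration nor the duration of thapsigargin, name 1 hairpin against ATF4, and do not say whether replicates were separate cultures, so p-values measure the spread between these samples, which may be technical.

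Thapsigargin blocks the calcium pumps of the endoplasmic reticulum (ER) and empties its calcium store, so that proteins misfold there. The unfolded protein response that follows has 3 sensors. IRE1 (ERN1) splices the mRNA of XBP1, ATF6 is cleaved into a transcription factor, and PERK (EIF2AK3) phosphorylates eIF2alpha, which slows general translation and favours translation of ATF4. ATF4 switches on genes for amino acid supply and for the stress factors CHOP (DDIT3) and TRIB3, a programme known as the integrated stress response. The ATF6 and XBP1 branches mainly raise chaperones and degradation factors through ER stress elements in promoters.

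Total counts were 16377881 and 14551191 in the shATF4 Tg libraries and 16567857 and 18407699 in the shATF4 DMSO libraries, and log2 CPM (counts scaled to library size) correlated at 0.988 between the Tg replicates and 0.989 between the DMSO replicates. In the shCtrl Tg group the replicates correlated at 0.868, and replicate 2 held counts in 15840 genes, whereas the remaining LX-2 libraries had counts in 22912 to 24255 genes. That library was left out, which leaves 1 shCtrl Tg library, assumed to vary like the other groups. Stellate markers added up to 3340 and 3330 CPM in the Tg libraries and 5620 and 5550 CPM in the DMSO libraries. Of the 17 stellate markers 5 were higher and 8 lower in Tg, and DES, LRAT and CYGB were below the count filter. Among markers of other cells, 8 of 11 epithelial and 8 of 9 hepatocyte genes stayed under 1 CPM in all 4 libraries, KRT5, GRHL2 and TTR among them at 0. Most of the epithelial sum (493 and 450 CPM in Tg, 428 and 407 CPM in DMSO) came from the keratins KRT8 and KRT18. Hepatocyte markers added up to 8.18 and 8.80 CPM in Tg and 6.16 and 7.06 CPM in DMSO, endothelial markers to 12.8 and 12.9 CPM in Tg and 18.6 and 15.7 CPM in DMSO (LYVE1 at 0), and leukocyte markers to 5.25 and 7.83 CPM in Tg and 8.57 and 12 CPM in DMSO (CD163 and CD3E among those at 0). The part of any of these cells in the results was not tested.

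One property of the LX-2 libraries has to be known before the results. Many large differences between Tg and DMSO were also present in the AA_Dep cells (taken to mean amino acid deprivation) and absent from the cells with TGFbeta. With shATF4, 248 genes were higher and 272 lower in Tg than in DMSO at an absolute log2 difference of at least 3, against 25 and 20 between Tg and AA_Dep and 73 and 63 between TGFbeta and DMSO. The cell surface glycoprotein THY1 had 1.39 and 1.5 CPM in shATF4 Tg and 0.266 and 0.207 CPM in AA_Dep, against 221 and 237 CPM in TGFbeta and 271 and 281 CPM in DMSO. IGFBP5, a binding protein of insulin-like growth factors, had 2.43 and 2.15 CPM in Tg, 2.98 and 2.74 CPM in AA_Dep, 1008 and 953.8 CPM in TGFbeta and 972 and 936 CPM in DMSO. The long noncoding RNA UCA1 showed the reverse order, with 144 and 162 CPM in Tg, 181 and 180.5 CPM in AA_Dep, 1.40 and 1.79 CPM in TGFbeta and 1.74 and 1.62 CPM in DMSO. These genes were named for their large changes. In each of them the Tg and AA_Dep libraries lay apart from the TGFbeta and DMSO libraries with no overlap. The shCtrl libraries were divided in the same way, with UCA1 at 72.2 CPM in Tg, 91.8 and 95.3 CPM in AA_Dep and at most 0.426 CPM in TGFbeta and DMSO. The labels do not say whether the Tg and DMSO cells were cultured side by side, and what sets the libraries apart was not tested. Counts of the gene groups below are given against DMSO, the comparison of the design, and also against AA_Dep, which shares this feature but, read so, is itself a stress. Both comparisons use the same Tg libraries.

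**Figure D1:**
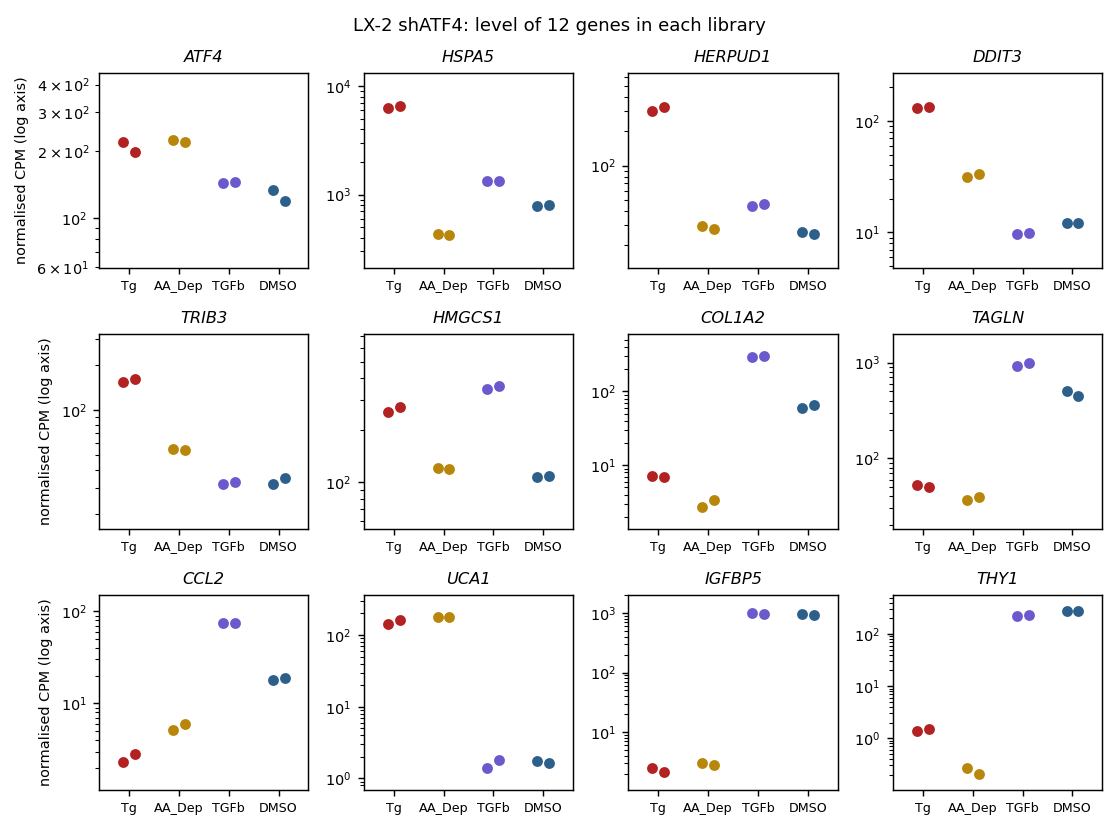
Normalised CPM (log axis) of 12 genes in the 2 libraries of each shATF4 LX-2 condition, Tg, AA_Dep, TGFbeta and DMSO; each point is 1 library. HSPA5, HERPUD1, DDIT3 and TRIB3 were highest in Tg, whereas for UCA1, IGFBP5 and THY1 the Tg and AA_Dep libraries lay on one side and the TGFbeta and DMSO libraries on the other.

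Differences were also spread unevenly along the chromosomes. In 127 windows of at least 100 neighbouring expressed genes (13969 genes), the median log2 difference of Tg minus DMSO ran from -0.512 to 0.439, with an SD over windows of 0.205. The SD was 0.147 for TGFbeta minus DMSO, 0.0692 for Tg minus AA_Dep and 0.0463 for Tg minus DMSO in HMLE shATF4 cells. Both windows of chromosome 13 were low (-0.433 and -0.486), as were the first windows of chromosome 8 (-0.512 and -0.346), while the last window of chromosome 12 was high at 0.439. After the median of each gene's window was taken off, the median of the ER chaperones moved to 1.157, against 1.118 before, that of the cholesterol genes to 0.839, against 0.891, and that of the collagen and matrix genes to -0.872, against -1.018. The part of these shifts in the results below was not otherwise tested.

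**Figure D2:**
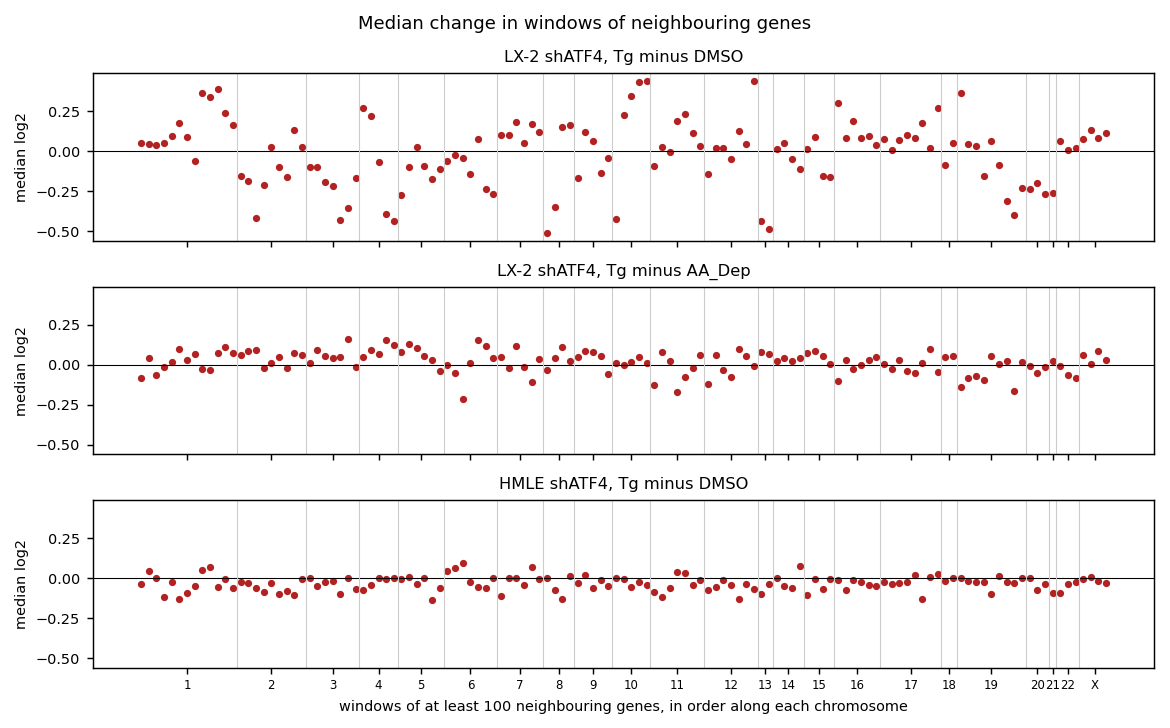
Median log2 difference (y axis) in 127 windows of neighbouring genes placed in order along the chromosomes (x axis), each point 1 window. In LX-2 shATF4 cells the windows ran from -0.512 to 0.439 for Tg minus DMSO, a wider spread than for Tg minus AA_Dep or in HMLE shATF4 cells, where they ran from -0.135 to 0.093.

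Of 18649 genes tested, 3327 were higher in shATF4 Tg than in shATF4 DMSO (17.8%) and 3588 were lower (19.2%) at an adjusted p under 0.05 in edgeR's quasi-likelihood test, as used throughout. Against AA_Dep the counts were 1484 higher (7.96%) and 1425 lower (7.64%). These shares over all genes are the background for the counts of every gene group below. With the discordant shCtrl library in the fit, which raises the estimate of the spread, the counts against DMSO were 620 and 777. Each gene that was tested in both fits had the same sign (3299 and 3563 genes). That was given in advance, because the sign comes from the same 4 compared libraries in both fits. Of the 93 genes followed through these fits, 87 passed in the fit without that library and 27 of those no longer did with it, ATF4 (adjusted p = 0.18), ATF3 (0.45), PPP1R15A (0.3), PSAT1 (0.057), HMGCS1 (0.15), COL3A1 (0.53), ACTA2 (0.24), TNFAIP3 (0.27) and TNFRSF10B (0.18) among them. With it, 13 of 24 ER chaperones, 7 of 23 stress response targets and 10 of 26 cholesterol genes were higher, and 13 of 34 matrix genes, 5 of 19 contractile genes and 12 of 22 cytokines were lower. Leaving out 1 of the 4 compared libraries ended the calls of CREB3, ERN1, ATF6, CREB3L2, PPP1R15A, KRT8 and KRT18, with adjusted p between 0.057 and 0.16. In bulk RNA, fewer cells of a state and less RNA per cell cannot be told apart.

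ATF4 itself, the target of the hairpin, was at 221 and 199 CPM in Tg and 133 and 119 CPM in DMSO. It rose by 0.74 ± 0.10 (SE) on the log2 scale, with an adjusted p of 3.7e-05. With shCtrl it stood at 626 CPM in the Tg library and at 225 and 247 CPM in DMSO, so the shATF4 Tg libraries lay just below the shCtrl DMSO libraries. The ATF4 response was smaller by 0.67 ± 0.16 with shATF4 than with shCtrl (adjusted p = 0.019). These levels are of mRNA, and say nothing of translation, the step at which ATF4 is mainly controlled.

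The sensors of the unfolded protein response and their transcription factors rose for the most part. Of 13 genes, 10 were higher and 2 lower, with a median log2 difference of 0.568 beside 0.007 over all genes. DDIT3, which encodes the pro-death factor CHOP, had 130.3 and 134 CPM in Tg and 12.1 and 12.2 CPM in DMSO, a rise of 3.45 ± 0.12 (adjusted p = 8e-12). XBP1 had 138 and 146 CPM in Tg and 63.1 and 68.7 CPM in DMSO (1.11 ± 0.10, adjusted p = 2.5e-07). These counts are per gene and do not separate the spliced from the unspliced form of XBP1. EIF2AK3 rose by 0.90, ERN1 by 0.53, ATF6 by 0.36 and its relative ATF6B by 0.62. ATF3, a repressor induced by ATF4, had 13.0 and 14.6 CPM in Tg and 8.88 and 8.21 CPM in DMSO (0.69 ± 0.14, adjusted p = 0.0012). Among the CREB3 family of ER-bound factors, CREB3 rose by 0.30 and CREB3L2 by 0.57, whereas CREB3L1, known for driving collagen secretion, fell by 0.45. MBTPS1, the protease that makes the first cut in ATF6 and in the sterol regulators, fell to 60.4 and 64.1 CPM in Tg, against 149 and 148 CPM in DMSO, and MBTPS2, which makes the second cut, was at 0.11 (adjusted p = 0.48). Against AA_Dep 6 of the 13 were higher and none was lower. MBTPS1 then differed by 0.25 (adjusted p = 0.059).

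ER chaperones and folding enzymes gave the clearest rise. Of 24 genes, 21 were higher and 1 was lower, with a median of 1.118. Against AA_Dep 21 were higher and 0 lower, with a median of 1.529, but AA_Dep itself lay below DMSO (median -0.516). HSPA5 encodes BiP, the main Hsp70 of the ER lumen and the protein that holds the sensors inactive. It had 6286 and 6567 CPM in Tg and 779.6 and 796 CPM in DMSO, a rise of 3.03 ± 0.06 (adjusted p = 1.3e-14). BiP mRNA in AA_Dep was at 432 and 422 CPM, below DMSO. SDF2L1, a partner of ER Hsp40 proteins, had 330.3 and 259 CPM in Tg and 39.1 and 32.4 CPM in DMSO (3.04 ± 0.20, adjusted p = 1.5e-08). The Hsp40 DNAJB9 had 137 and 144 CPM in Tg and 22.2 and 23.4 CPM in DMSO (2.62 ± 0.10, adjusted p = 2.8e-11). The disulfide isomerase PDIA4 had 1523 and 1601 CPM in Tg and 298 and 311 CPM in DMSO (2.36 ± 0.07, adjusted p = 1.6e-12), and the secreted factor MANF and the isomerase-like CRELD2 rose by 2.46 and 2.29. None of the Tg libraries overlapped a DMSO library for these genes. This is a weak criterion with 2 libraries per group, and the share of all genes that meet it is not given here. It was also largely given in advance, because these genes were named for their large changes. The oxidase ERO1A was at 0.00 (adjusted p = 0.99), with 137 and 148 CPM in Tg and 139 and 146 CPM in DMSO.

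Factors of ER-associated degradation, which pull misfolded proteins back to the cytosol for the proteasome, rose in 14 of 19 and fell in 1 (median 0.624), and 15 rose and 0 fell against AA_Dep (median 0.696). HERPUD1, a scaffold of the degradation complex, had 304 and 324 CPM in Tg and 26.1 and 25.2 CPM in DMSO (3.62 ± 0.09, adjusted p = 2.8e-13). The ubiquitin ligase SYVN1 rose by 1.64, its partner SEL1L by 1.27 and the channel factors DERL3 and DERL2 by 2.68 and 1.005. Genes for translocation into the ER and COPII transport rose in 16 of 26 and fell in 4. SEC62 was among those that fell (-1.27), as was SSR3 (-0.74). Against AA_Dep 22 of these 26 were higher and 0 lower, but AA_Dep itself lay below DMSO (median -0.587). SSR3 was then higher by 0.82, although it was lower than in DMSO. It had 297 and 309 CPM in Tg, 507 and 506 CPM in DMSO and 171 CPM in each AA_Dep library. RCAN1, an inhibitor of calcineurin that responds to calcium, had 419 and 449 CPM in Tg and 80.05 and 90.05 CPM in DMSO (2.35 ± 0.09, adjusted p = 2.3e-11), and ATP2A2, the ER calcium pump that thapsigargin blocks, had 929 and 911 CPM in Tg and 480.1 and 478 CPM in DMSO (0.94 ± 0.07, adjusted p = 5.2e-08). Of 20 genes of ER calcium handling 10 rose and 2 fell, against 5 and 1 relative to AA_Dep.

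Promoters of 5 raised genes are shown because they carry motifs through which these pathways are known to act. They are the 250 bases before the gene start in RefSeq (GRCh38.p14), 5' to 3' along the gene, with matches in capitals. In HSPA5 and CRELD2 the capitals mark the ER stress element, CCAAT and CCACG with 9 bases of any kind between them, in SDF2L1 and HERPUD1 its shorter relative ERSE-II, ATTGG and CCACG with 1 base between them, and in CHAC1 and HERPUD1 the core of the C/EBP-ATF element bound by ATF4, TGATGCAA, each read on either strand.
HSPA5, chr9:125241344-125241593, minus strand: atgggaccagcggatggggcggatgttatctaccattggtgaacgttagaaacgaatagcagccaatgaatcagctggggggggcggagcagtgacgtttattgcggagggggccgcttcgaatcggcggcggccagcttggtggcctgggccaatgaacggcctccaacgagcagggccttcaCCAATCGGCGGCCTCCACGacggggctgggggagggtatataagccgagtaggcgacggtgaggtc
CRELD2, chr22:49918384-49918633, plus strand: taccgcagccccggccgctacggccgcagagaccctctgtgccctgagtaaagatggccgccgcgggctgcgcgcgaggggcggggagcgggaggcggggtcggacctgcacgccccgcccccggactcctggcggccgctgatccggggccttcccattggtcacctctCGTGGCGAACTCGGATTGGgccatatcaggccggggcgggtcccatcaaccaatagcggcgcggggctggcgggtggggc
SDF2L1, chr22:21642052-21642301, plus strand: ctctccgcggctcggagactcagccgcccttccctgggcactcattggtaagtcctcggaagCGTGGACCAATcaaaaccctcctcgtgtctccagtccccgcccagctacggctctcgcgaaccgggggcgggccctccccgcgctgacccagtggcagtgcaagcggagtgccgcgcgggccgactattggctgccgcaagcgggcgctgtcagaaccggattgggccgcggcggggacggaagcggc
HERPUD1, chr16:56931892-56932141, plus strand: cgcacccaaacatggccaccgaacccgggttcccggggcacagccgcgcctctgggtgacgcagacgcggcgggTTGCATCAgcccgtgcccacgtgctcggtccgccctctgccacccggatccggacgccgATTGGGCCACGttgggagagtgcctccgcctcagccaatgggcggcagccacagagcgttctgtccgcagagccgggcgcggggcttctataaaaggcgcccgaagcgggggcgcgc
CHAC1, chr15:40953221-40953470, plus strand: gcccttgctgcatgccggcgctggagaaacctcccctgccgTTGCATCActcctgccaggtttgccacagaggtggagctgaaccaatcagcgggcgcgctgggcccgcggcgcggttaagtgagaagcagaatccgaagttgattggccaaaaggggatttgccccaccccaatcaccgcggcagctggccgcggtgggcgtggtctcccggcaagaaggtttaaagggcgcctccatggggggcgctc
RefSeq promoters of 300 bases (250 before to 50 after the start) were matched by symbol for 12461 of the tested genes. The ER stress element was found in 14 of them (0.112%; 0.081% of all 27195 promoters), and of these 14 genes 12 were higher and 1 lower in Tg. The ER chaperone list supplied 6 of the 14 (HSPA5, HSP90B1, CALR, CANX, CRELD2 and ERO1B), and XBP1, FICD, SERP1, ALG12, TMEM120A and TRIM5 were the others that were higher. FICD, an enzyme that modifies BiP, had 98.0 and 99.6 CPM in Tg and 28.7 and 31.0 CPM in DMSO. ERSE-II was found in 11 (0.088%; 0.055% of all), of which 5 were higher and 2 lower; HYOU1, SDF2L1 and HERPUD1 were among the 5. The C/EBP-ATF core was found in 64 (0.514%; 0.919% of all), of which 13 were higher (20.312%) and 15 lower, beside 17.8% higher and 19.2% lower over all genes. The sterol element TCACNCCAC was found in 141 (1.132%; 1.151% of all), and in the cholesterol list in SREBF2. The motifs share no bases in the promoters shown, a match is a description and not a binding site, and these genes were chosen with their changes known.

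**Figure D3:**
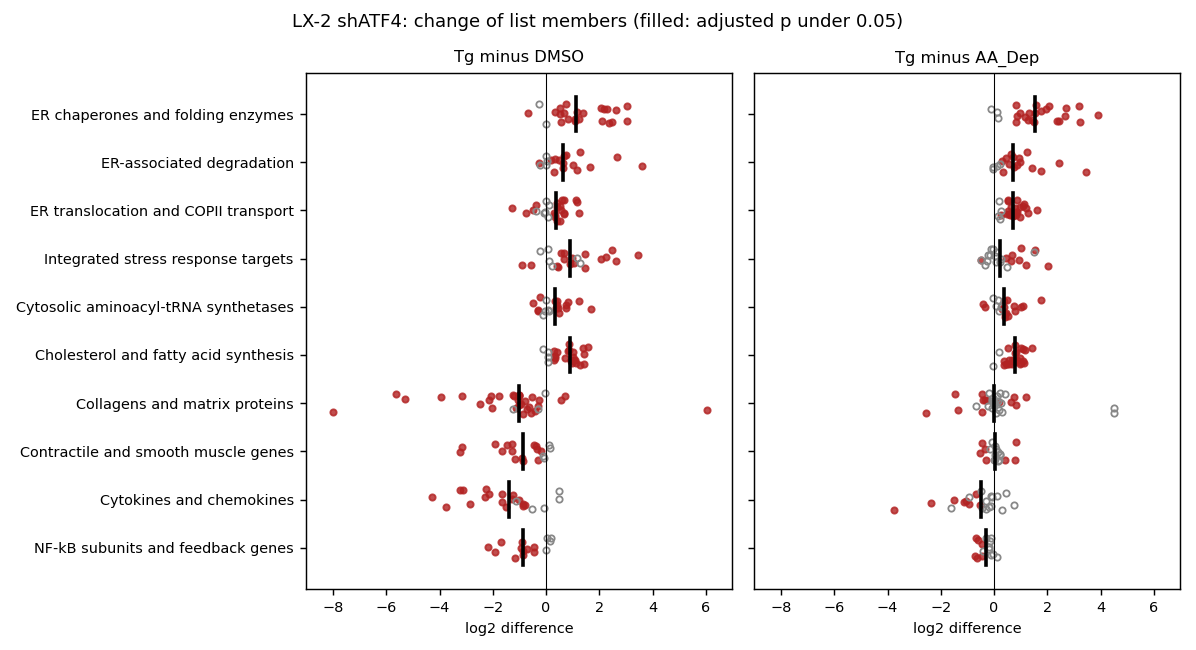
Log2 difference (x axis) of every tested member of 10 gene lists in shATF4 LX-2 cells, Tg minus DMSO on the left and Tg minus AA_Dep on the right; filled points passed an adjusted p of 0.05 and black bars are medians. The medians of the ER chaperones and cholesterol genes lay to the right of 0 in both panels, while those of the collagens and contractile genes lay to the left of 0 against DMSO and near 0 against AA_Dep.

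Targets of the integrated stress response still rose in part. Of 23 genes, 15 were higher and 2 lower, with a median of 0.886, and 8 were higher and 1 lower against AA_Dep. TRIB3, a pseudokinase that binds ATF4, had 155 and 162 CPM in Tg and 32.0 and 35.2 CPM in DMSO (2.24 ± 0.09, adjusted p = 7.2e-11). CHAC1, which degrades glutathione, had 20.9 and 22.1 CPM in Tg and 4.2 and 3.56 CPM in DMSO (2.47 ± 0.20, adjusted p = 9.1e-08). The mTORC1 inhibitor SESN2 rose by 1.45, and its relative SESN3 by 3.54, with 27.4 and 30.1 CPM in Tg, 2.22 and 2.70 CPM in DMSO, and 30.5 and 28.3 CPM in AA_Dep. PPP1R15A, the stress-induced subunit that reverses eIF2alpha phosphorylation, had 199 and 164 CPM in Tg and 139 and 134 CPM in DMSO, a rise of 0.41 ± 0.11 (adjusted p = 0.0099). VEGFA was at 0.21 (adjusted p = 0.2).

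The amino acid arm of ATF4 was mixed. Cytosolic aminoacyl-tRNA synthetases, which charge tRNAs, were higher in 11 of 20 and lower in 4 (13 and 2 against AA_Dep), with AARS1 at 453 and 437 CPM in Tg and 138 and 138 CPM in DMSO (1.69 ± 0.07, adjusted p = 1.2e-10). Serine, glycine and one-carbon enzymes were higher in 5 of 12 and lower in 3 (5 and 0 against AA_Dep). PSAT1 of serine synthesis had 166 and 174 CPM in Tg and 70.2 and 66.8 CPM in DMSO (1.31 ± 0.08, adjusted p = 3.5e-09), and the mitochondrial folate enzyme MTHFD2 was at 0.22 (adjusted p = 0.069). Amino acid transporters were higher in 6 of 19 and lower in 8 (5 and 2 against AA_Dep). SLC3A2, the shared heavy chain of several exchangers, had 925 and 852 CPM in Tg and 255 and 254 CPM in DMSO, a rise of 1.80 ± 0.11 (adjusted p = 4.2e-09). Its light chain partner SLC7A5, a carrier of large neutral amino acids, went the other way, with 22.5 and 22.7 CPM in Tg and 54.4 and 47.5 CPM in DMSO (-1.17 ± 0.10, adjusted p = 2e-07). In AA_Dep SLC7A5 was lower still, at 13.1 and 13.0 CPM.

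Cholesterol and fatty acid synthesis rose as a group. Of 26 genes, 22 were higher and 0 lower, with a median of 0.891, and 24 were higher and 0 lower against AA_Dep, with a median of 0.786. HMGCS1, an early enzyme of the sterol pathway, had 255 and 272 CPM in Tg and 108 and 109 CPM in DMSO (1.28 ± 0.07, adjusted p = 2.6e-09). DHCR7, the last enzyme of cholesterol synthesis, had 278 and 272 CPM in Tg and 111 and 100 CPM in DMSO (1.38 ± 0.10, adjusted p = 3.3e-08). The fatty acid desaturase SCD had 564 and 609 CPM in Tg and 218 and 225 CPM in DMSO (1.41 ± 0.09, adjusted p = 1.2e-08), and FADS2 had 376 and 379 CPM in Tg and 182 and 167 CPM in DMSO (1.11 ± 0.08, adjusted p = 4.3e-08). SREBF2, which encodes the sterol-regulated transcription factor of this pathway, was at 0.07 (adjusted p = 0.47), with 305 and 316 CPM in Tg and 301 and 291 CPM in DMSO.

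Matrix genes were lower in Tg than in DMSO, but mostly not lower than in AA_Dep. Of 34 collagens and matrix proteins, 28 were lower and 3 higher, with a median of -1.02, whereas 8 were lower and 5 higher against AA_Dep, with a median of 0.005. COL1A2, a chain of type I collagen, had 7.18 and 6.89 CPM in Tg and 59.3 and 65.6 CPM in DMSO (-3.15 ± 0.10, adjusted p = 4e-12). AA_Dep cells had 2.76 and 3.36 CPM of COL1A2, so the Tg level was between the other conditions. COL3A1 had 48.1 and 44.8 CPM in Tg, 93.3 and 96.4 CPM in DMSO, and 28.2 and 26.98 CPM in AA_Dep. FBLN1, a matrix glycoprotein, had 0.232 and 0.065 CPM in Tg and 41.2 CPM in each DMSO library, with no read in AA_Dep. The lysyl oxidase LOXL2, which crosslinks collagen, had 381 and 355 CPM in Tg, 868 and 863 CPM in DMSO, and 366 and 392 CPM in AA_Dep. PPIB, a proline isomerase of the ER that acts on collagen, rose instead, with 237 and 243 CPM in Tg and 90.4 and 92.4 CPM in DMSO (1.39 ± 0.09, adjusted p = 1.2e-08). Of 18 matrix proteases and their inhibitors 11 were lower and 4 higher, and 5 were lower and 3 higher against AA_Dep. The interstitial collagenase MMP1 rose by 1.72 ± 0.10, with 289.9 and 296 CPM in Tg and 88.6 and 89.1 CPM in DMSO (adjusted p = 3.3e-09), whereas the gelatinase MMP2 fell by 1.49.

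Contractile genes, the mark of an activated stellate cell, were lower in 15 of 19 and higher in 0, with a median of -0.853, against 4 lower and 3 higher relative to AA_Dep. TAGLN, which binds actin, had 52.5 and 50.3 CPM in Tg and 509.9 and 446 CPM in DMSO (-3.22 ± 0.11, adjusted p = 5.2e-12), and 36.7 and 39.6 CPM in AA_Dep. Smooth muscle actin, ACTA2, had 3.996 and 5.85 CPM in Tg and 15.96 and 15.1 CPM in DMSO (-1.67 ± 0.15, adjusted p = 4.4e-07). Of 20 genes of the TGF-beta response 11 were lower and 4 higher, and 8 were lower and 3 higher against AA_Dep. TGFBI, a matrix protein induced by TGF-beta, had 284 and 294 CPM in Tg, 732 and 736 CPM in DMSO, and 449 and 459 CPM in AA_Dep; it was lower than in AA_Dep by a log2 difference of -0.65 (adjusted p = 9.6e-07).

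Cytokines and chemokines were lower in 17 of 22 and higher in 0, with a median of -1.388, and 8 were lower and 0 higher against AA_Dep, with a median of -0.482. CXCL6, which attracts neutrophils, had 6.43 and 7.48 CPM in Tg, 60.2 and 59.6 CPM in DMSO, and 14.98 and 13.8 CPM in AA_Dep; it fell by 3.11 ± 0.15 against DMSO (adjusted p = 2.9e-10) and by 1.05 against AA_Dep (adjusted p = 0.00024). CCL2, which attracts monocytes, had 2.32 and 2.80 CPM in Tg and 17.8 and 18.8 CPM in DMSO (-2.84 ± 0.14, adjusted p = 4.1e-10). CSF2, the granulocyte and macrophage growth factor, had 3.01 and 3.51 CPM in Tg and 16.4 and 15.2 CPM in DMSO (-2.28 ± 0.18, adjusted p = 8.1e-08). Of 15 genes for NF-kB subunits and their feedback targets 11 were lower and 0 higher, and 6 were lower and 0 higher against AA_Dep. NFKBIZ, an atypical inhibitor and cofactor of NF-kB, had 25.4 and 24.8 CPM in Tg and 106 and 120.1 CPM in DMSO (-2.17 ± 0.12, adjusted p = 1.2e-09), whereas RELA, the main activating subunit, was at 0.02 (adjusted p = 0.89).

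Over all genes 17.8% were higher and 19.2% lower than in DMSO, and 7.96% were higher and 7.64% lower than in AA_Dep. Several counts of this paragraph lie near these shares and are then no result about the list. Of 20 cell death genes 7 were lower and 2 higher, and 10 were lower and 1 higher against AA_Dep. TNFRSF10B, the TRAIL receptor DR5 and a known target of CHOP, had 116 and 109 CPM in Tg and 194 and 203 CPM in DMSO (-0.82 ± 0.07, adjusted p = 2.4e-07), and 149 and 146 CPM in AA_Dep. The decoy receptor TNFRSF10D had 32.6 CPM in each Tg library and 160.5 and 146 CPM in DMSO (-2.23 ± 0.10, adjusted p = 1.3e-10). Of the cytosolic heat shock proteins 10 of 20 were lower and 3 higher (7 and 2 against AA_Dep), and HSP90AA1 had 975 and 982 CPM in Tg and 1752 and 1809 CPM in DMSO. Cell cycle genes were lower in 14 of 26 and higher in 2 (median -0.247), and lower in 4 and higher in 1 against AA_Dep, with RRM2 of nucleotide synthesis at -1.16. Cytosolic ribosomal proteins passed in 5 of 25 (3 higher, 2 lower), although 13 of 25 were lower and 0 higher than in AA_Dep. AA_Dep itself was above DMSO for this list, with a median log2 difference of 0.533. NRF2 targets were higher in 5 of 18 and lower in 3 (median 0.12), and higher in 1 and lower in 3 against AA_Dep. HMOX1, a heme-degrading target of NRF2, rose by 1.81 to 119 and 116 CPM in Tg, against 32.2 and 34.6 CPM in DMSO, and stood at 116 and 123 CPM in AA_Dep. Autophagy and lysosome genes were higher in 6 of 20 and lower in 6 (median -0.162), and higher in 2 and lower in 6 against AA_Dep. Among them the autophagy gene WIPI1 rose by 1.87 and by 1.31 against AA_Dep, while the lysosomal protease CTSB fell by 1.21.

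Among the largest differences, TENM3, a neuronal adhesion protein, had 220 and 197 counts in the Tg libraries and 0 in both DMSO libraries, at least 149.8-fold higher when DMSO is set to a floor of 3 counts over the group. FGD5, an exchange factor of endothelial cells, had 0 counts in both Tg libraries and 113 and 126 in the DMSO libraries, at least 73.9-fold lower with the same floor for Tg. NLGN4X, CDH18 and TENM4 were also among the largest rises, and FBLN1, THY1, MCAM, CD248 and ITGB6 among the largest falls, with few counts in the lower group. NLGN4X, an adhesion protein of synapses, had 12.97 and 11.8 CPM in Tg and 0.06 and 0.054 CPM in DMSO, and MCAM, an adhesion molecule of vessel and stromal cells, had 1.04 and 1.43 CPM in Tg and 91.4 and 94.6 CPM in DMSO. In AA_Dep, NLGN4X had 10.7 and 11.2 CPM, and MCAM had 1.38 and 0.672 CPM. The antisense transcripts KAZN-AS1, which rose, and TP73-AS1, which fell, were also among the largest, and are uncertain because the strand setting of the counting is not stated.

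Beside the control hairpin, the response with shATF4 was correlated at a Pearson r of 0.701 over genes, which are not independent replicates. These responses share no library. Of the genes higher with shATF4, 2335 were also higher with shCtrl, 70.183% of the shATF4 list and 62.101% of the shCtrl list. The shCtrl list held 3760 genes (20.2% of those tested), and 3798 (20.4%) were lower with shCtrl. Of the genes lower with shATF4, 2562 were also lower with shCtrl, 71.405% of the shATF4 list and 67.457% of the shCtrl list. The difference of the responses passed in 684 genes that were higher with shATF4 (3.67%) and in 459 that were lower (2.46%). It rests on 1 shCtrl Tg library: with both in the fit the counts were 31 and 17, and most genes kept their sign. That was largely given in advance, because the fits differ only in replicate 2 of shCtrl Tg. With replicate 2 alone in the place of replicate 1 the counts were 7488 and 4638. Most genes with a higher response with shATF4 had fallen with shCtrl, and most of these fell less with shATF4. Most genes with a lower response had risen with shCtrl, and most of these rose less with shATF4. Both patterns were partly given in advance. The difference and the shCtrl response use the same shCtrl libraries, the only shCtrl Tg library of the fit among them.

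The rise of integrated stress response genes was smaller with shATF4. The response was lower with shATF4 in 14 of 23 of its genes and higher in 0, with list medians of 0.886 with shATF4 and 2.139 with shCtrl. TRIB3 had 155 and 162 CPM in shATF4 Tg against 461 CPM in shCtrl Tg, and its response was lower by 1.39 ± 0.14 (adjusted p = 1.9e-05). The response of DDIT3 was lower by 1.87 ± 0.18 (adjusted p = 1.3e-05), that of ATF3 by 2.48 ± 0.22 (5.4e-06) and that of CHAC1 by 1.79 ± 0.29 (0.0013). For DDIT3 and ATF3 the hairpins also differed in DMSO, where levels were higher with shATF4. DDIT3 had 130.3 and 134 CPM in shATF4 Tg and 264 CPM in shCtrl Tg, beside 12.1 and 12.2 CPM and 6.66 and 6.54 CPM in DMSO. ATF3 had 13.0 and 14.6 CPM in shATF4 Tg and 34.4 CPM in shCtrl Tg, beside 8.88 and 8.21 CPM and 3.78 and 3.87 CPM in DMSO. The DMSO levels of TRIB3 lay closer together, at 32.0 and 35.2 CPM with shATF4 and 36.1 and 38.6 CPM with shCtrl. Of the synthetases 9 of 20 and of the one-carbon enzymes 6 of 12 had a lower response, and 0 of either a higher one. SLC7A5 had 64.8 CPM in shCtrl Tg beside 57.9 and 59.6 CPM in shCtrl DMSO, and its response was lower by 1.31 ± 0.15 with shATF4 (adjusted p = 6e-05). Of the ER chaperones 2 of 24 had a lower response and 0 a higher one. HSPA5 was one of these, with 6286 and 6567 CPM in shATF4 Tg and 11420 CPM in shCtrl Tg, lower by 0.83 ± 0.09 (adjusted p = 2.9e-05). With all 16 LX-2 libraries in the fit, 2 of the 23 stress response genes and 0 of the 24 chaperones passed, and the list medians of the difference were -1.372 and -0.325.

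The matrix and cholesterol genes differed in the other direction. Of 34 collagens and matrix proteins 17 had a higher response with shATF4, which was a smaller fall, and 0 a lower one. COL3A1 had 48.1 and 44.8 CPM in shATF4 Tg against 11.2 CPM in shCtrl Tg, although DMSO cells had 93.3 and 96.4 CPM with shATF4 and 260.1 and 269 CPM with shCtrl; its response was higher by 3.53 ± 0.14 (adjusted p = 9.8e-10). That of COL1A2 was higher by 2.40 ± 0.19 (adjusted p = 1.6e-06), with 7.18 and 6.89 CPM in shATF4 Tg and 2.82 CPM in shCtrl Tg, beside 59.3 and 65.6 CPM and 129 and 136 CPM in DMSO. MMP1 had 289.9 and 296 CPM in shATF4 Tg and 430.1 CPM in shCtrl Tg, beside 88.6 and 89.1 CPM and 13.6 and 12.9 CPM in DMSO, so that its response was lower by 3.30 ± 0.16 (adjusted p = 1e-08) while its DMSO level was higher. For COL3A1, COL1A2 and MMP1 both the DMSO and the Tg levels thus differed between the hairpins. Of the 26 cholesterol genes 12 had a higher response with shATF4 and 0 a lower one, with list medians of 0.891 with shATF4 and 0.161 with shCtrl. FADS2 had 376 and 379 CPM in shATF4 Tg and 281 CPM in shCtrl Tg, beside 182 and 167 CPM and 298 and 332 CPM in DMSO, a response higher by 1.28 ± 0.13 (adjusted p = 2.4e-05), and that of HMGCS1 was higher by 0.88 ± 0.12 (adjusted p = 0.00023). With all 16 libraries, 4 of the 34 matrix genes and 2 of the 26 cholesterol genes passed, and the list medians of the difference were 1.152 and 0.697.

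**Figure D4:**
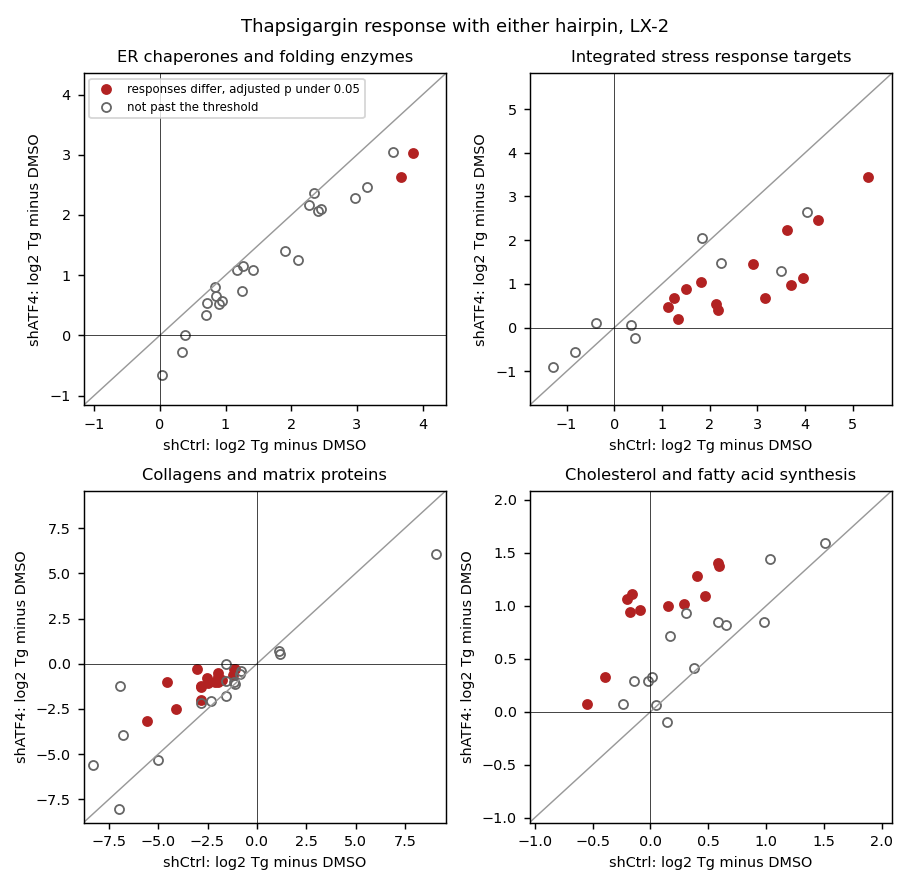
Log2 difference of Tg minus DMSO in shATF4 LX-2 cells (y axis) against that in shCtrl LX-2 cells (x axis) for the members of 4 lists; each point is 1 gene, filled where the responses differed at an adjusted p under 0.05, and the line marks equal responses. The filled points lay below the line for the chaperones and stress response targets and above it for the matrix and cholesterol genes.

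In HMLE cells with the same hairpin, the ER part of the response was alike in direction and the inflammatory part was not. Over genes the responses of LX-2 and HMLE, which share no library, correlated at 0.05, and the difference passed in 2398 genes higher in LX-2 (11.8%) and 2723 lower (13.4%). With the discordant library in the fit the counts were 393 and 791. ER chaperones had medians of 1.118 in LX-2 and 0.75 in HMLE, and HSPA5, at 7620 and 7557 CPM in HMLE Tg and 1336 and 1259 CPM in HMLE DMSO, responded more in LX-2 by 0.46 ± 0.08 (adjusted p = 6e-05). HERPUD1 rose by 3.62 in LX-2 and by 3.41 in HMLE, a difference of 0.18 ± 0.10 (adjusted p = 0.2). Integrated stress response targets had medians of 0.886 in LX-2 and 0.917 in HMLE, and of the 23 genes 6 responded more and 8 less in LX-2. ATF4 rose in LX-2 and was at -0.28 in HMLE, with 111 and 113 CPM in HMLE Tg and 139.8 and 132 CPM in HMLE DMSO, a difference of 0.9975 ± 0.12 (adjusted p = 5e-07). TRIB3 rose by 2.24 in LX-2 and by 0.32 in HMLE, a difference of 1.90 ± 0.11 (adjusted p = 5.6e-13).

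The median of the cytokines was -1.388 in LX-2 and 1.714 in HMLE, and the response was lower in LX-2 in 16 of 22 and higher in 0. CSF2 had 2.45 and 3.27 CPM in HMLE Tg and 0.808 and 0.904 CPM in HMLE DMSO, and the lines differed by -4.04 ± 0.31 (adjusted p = 1.8e-10). Among the NF-kB genes 12 of 15 had a lower response in LX-2 and 0 a higher one. TNFAIP3, the deubiquitinase A20 that ends NF-kB signalling, had 109 and 118 CPM in LX-2 Tg and 212 and 217 CPM in LX-2 DMSO, but 94.1 and 109 CPM in HMLE Tg and 24.5 and 25.5 CPM in HMLE DMSO, a difference of -2.96 ± 0.12 (adjusted p = 6.6e-16). The response of matrix genes was lower in LX-2 in 21 of 34 and higher in 1. UCA1, with 179 and 189 CPM in HMLE Tg and 189.5 and 184 CPM in HMLE DMSO, differed by 6.51 ± 0.15 (adjusted p = 3.2e-21), and THY1 by -7.18 ± 0.24 (1.3e-17). For both genes the AA_Dep libraries of LX-2 lay on the same side of DMSO as the Tg libraries. The same held for list medians in LX-2 shATF4 cells. AA_Dep minus DMSO had medians of -0.991 for the cytokines, -0.28 for the NF-kB genes and -0.978 for the matrix genes.

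**Figure D5:**
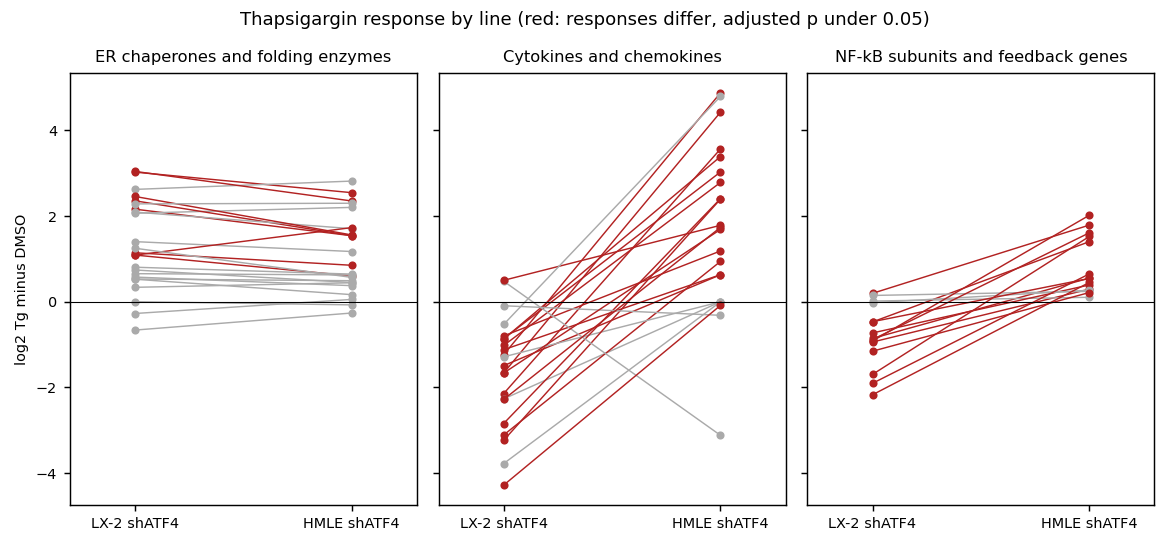
Log2 difference of Tg minus DMSO (y axis) in LX-2 shATF4 and HMLE shATF4 cells, each line 1 gene, red where the responses differed between the cell lines at an adjusted p under 0.05. The median of the ER chaperones was above 0 in both lines, whereas the medians of the cytokines and NF-kB genes were below 0 in LX-2 and above 0 in HMLE.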

How the data were processed

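RNA-seq counts of 32 RNA samples were used, 4 of which form the comparison described; the 9 ChIP samples were not analysed here. Per the labels' protocols, RNeasy columns gave total RNA, and a SMARTer mRNA-Seq kit gave the libraries. The deposited tables hold raw read counts per Ensembl gene; the submitters' processing notes name cutadapt, Bowtie2, STAR, HOMER, featureCounts and DESeq and the builds hg19 and hg38, with no versions or roles, and strandedness is not given in the sources used here. Each LX-2 file has 452 blank lines, which hold no gene and no count.

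From the counts, edgeR 4.0.16 (R 4.3.3) with TMM scaling, its default filter on low counts and the quasi-likelihood test was fitted to 15 LX-2 libraries, so that all groups share one estimate of the spread. Replicate 2 of shCtrl Tg was left out because earlier results of these data were known. A fit to 30 libraries of both lines gave the difference between lines, and 2 identical HMLE shATF4 AA_Dep tables were counted once. Its estimate of the spread thus drew on all HMLE groups, those with Twist_OE, AA_Dep or shCtrl included. P-values were adjusted by Benjamini-Hochberg over 18649 genes (20308 in both lines), with a threshold of 0.05. Log2 differences are Tg minus DMSO, with standard errors, and CPM use TMM library sizes, except in sums of markers, which use total counts. The script for these fits was tested on simulated data.

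The members, gene lists and tests were chosen with earlier results of these data known. Genes were named from a fixed rule: all ER stress sensors, from each other list up to 6 members with the largest changes past the threshold and up to 3 others with the highest CPM, and the largest changes and differences between responses with at least 5 CPM in the higher group; not all are printed, and genes named for a promoter motif or for their background role were added after their values were seen. Comparison with AA_Dep and the subtraction of window medians were chosen after seeing the data. Alternatives tried were DESeq2 1.42.0, its size factors in edgeR, no count filter, all 16 LX-2 libraries, the 4 compared libraries alone, the replicate number as a block, a minimum log2 change of 1, replicate 2 in place of replicate 1 of shCtrl Tg, and leaving out each library. Positions and promoter sequences are from RefSeq GRCh38.p14.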

Additional observations from a re-analysis of the deposited data

Results flagged for a closer look

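Each result here is a response to Tg that differed between groups in a test of the difference itself, with no weighing of causes. The response was higher with shATF4 than with shCtrl in 684 genes and lower in 459, and higher in LX-2 than in HMLE in 2398 genes and lower in 2723.

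Differences of log2 responses, shATF4 minus shCtrl, that were below 0 included those of MMP1 (-3.30), the noncoding RNA LINC00520 (-3.30), the potassium channel KCNK13 (-3.28), the immune receptor OSCAR (-3.10), KCP (-2.81), the stress cytokine GDF15 (-2.80), ATF3 (-2.48), DDIT3 (-1.87), CHAC1 (-1.79), TRIB3 (-1.39), SLC7A5 (-1.31), HSPA5 (-0.83) and ATF4 (-0.67). Those above 0 included COL3A1 (3.53), the protocadherin PCDHB12 (3.42), MYOCD, a coactivator of smooth muscle genes (2.76), the cadherin CDH6 (2.71), the lipopolysaccharide coreceptor CD14 (2.65), RIPOR3 (2.49), COL1A2 (2.40), FADS2 (1.28) and HMGCS1 (0.88). All of them rest on 1 shCtrl Tg library. Some have few counts in a shCtrl group, so their fitted differences are imprecise. Among these, shCtrl DMSO had 0.053 and 0.16 CPM of KCNK13 and 0.21 and 0.38 CPM of LINC00520. The shCtrl Tg library had 0.33 CPM of PCDHB12 and 0.38 CPM of RIPOR3.

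Between the lines, LX-2 minus HMLE, the difference was above 0 for CADPS2 (7.92), CDH18 (7.17), UCA1 (6.51), TRIB3 (1.90), ATF4 (0.9975) and HSPA5 (0.46). It was below 0 for FBLN1 (-7.92), THY1 (-7.18), CSF2 (-4.04) and TNFAIP3 (-2.96). CADPS2, CDH18 and FBLN1 have few counts in the lower LX-2 group, so their fitted differences are imprecise. CADPS2 and CDH18 were also near the floor in HMLE shATF4 Tg and DMSO, so their HMLE response was hardly measured. CADPS2 ran from 0.192 to 0.804 CPM there, and CDH18 from 0.0505 to 0.151 CPM. In LX-2 shATF4 cells, AA_Dep lay on the same side of DMSO as Tg for each gene of this paragraph except HSPA5. The part of the feature shared by Tg and AA_Dep in these differences was not tested.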

How the results depend on the processing

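The counts of genes higher and lower in Tg than in DMSO (3327 and 3588) stayed within 1.5 times under DESeq2 size factors, DESeq2 itself, no filter, the 4 libraries alone and the removal of any 1 compared library, where they ran from 2236 to 2515 and from 2578 to 2806. They moved with all 16 LX-2 libraries (620 and 777) and with a minimum log2 change of 1 (1130 and 1193). Differences from shCtrl (684 and 459) moved to 31 and 17 with all 16 libraries and to 7488 and 4638 with replicate 2 in place of replicate 1, and leaving out single libraries gave 368 to 513 and 248 to 326. Differences between lines (2398 and 2723) moved to 393 and 791 with all 16 libraries. Adding the discordant library raises the shared spread by construction. Same-numbered replicates deviated with correlations of 0.0649, -0.042 and -0.0428 over all tested genes. Genes with few counts enter these values, so they cannot tell whether the numbers pair the libraries. With the replicate block the counts were 3245 and 3513 against DMSO and 2385 and 2708 between lines. The ERO1A log2 change, which passed under none of them, was below 0 with 16 libraries (-0.001714) and with 4 (-0.0007903), and between -0.05182 and 0.05569 when 1 compared library was left out, a change of sign around 0. Depth limits genes with few counts, whose fitted differences depend on the prior count.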

Other observations

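Among groups not described above, interferon-stimulated genes were higher in 5 and lower in 5 of 21 against DMSO. Against AA_Dep they were lower in 10 and higher in 0 (median -0.815). Over all genes 17.8% were higher and 19.2% lower against DMSO, and 7.96% and 7.64% against AA_Dep. The counts of interferon-stimulated and of hypoxia and glycolysis genes against DMSO lie near these shares. Genes of hypoxia and glycolysis were higher in 6 and lower in 5 of 24 against DMSO, and lower in 11 and higher in 0 against AA_Dep (median -0.314); their response was higher with shATF4 than with shCtrl in 11 and lower in 0. Growth factors, receptors and IGF-binding proteins were lower in 13 and higher in 5 of 23 against DMSO (median -0.516), and lower in 7 and higher in 3 against AA_Dep. AA_Dep itself differed from DMSO in these lists. The medians of AA_Dep minus DMSO were 1.058 for the interferon-stimulated genes, 0.294 for hypoxia and glycolysis and -0.677 for the growth factor list.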
